A study of Mus musculus with 8 samples.

Results

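The genes described here are 10 members of the transforming growth factor beta (TGF-beta) pathway in mouse pancreatic cancer cells. They are the ligands Tgfb1, Tgfb2 and Tgfb3, the receptors Tgfbr1, Tgfbr2 and Tgfbr3, the signal transducers Smad2 and Smad3, and the feedback genes Pmepa1 and Skil. They were taken by symbol from a table of read counts with 24421 rows, and all 10 were found. The cells were KPCY, a pancreatic cancer line from a male mouse whose alleles the labels do not spell out, and messenger RNA was read in 4 libraries of a stable line carrying a lentiviral inhibitor of miR-27a-3p (miR-27a KD) and 4 libraries of a stable line carrying a scrambled sequence (Scr). Both lines had been selected with 2 µg/mL puromycin for 7 days and were seeded 24 hours before RNA isolation. The labels call the 4 libraries of each group biological replicates, but describe 1 stable line per group and no separate transductions. A p-value here therefore covers the spread among cultures of these lines, not among independently made lines. The labels give medium with 10% serum and 4.5 g/L glucose for both lines, and mention no addition of TGF-beta and no receptor inhibitor.

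TGF-beta ligands are secreted in a latent form, and once released they bind the type II receptor Tgfbr2, which phosphorylates the type I receptor Tgfbr1. Tgfbr1 then phosphorylates Smad2 and Smad3, which enter the nucleus with Smad4 and switch genes on or off, among them inhibitors of the pathway itself. In the epithelium of the pancreas the pathway restrains growth, and in carcinoma it is also known for driving mesenchymal and matrix genes. Tgfbr1 and the Smads have been reported as targets of miR-27, a microRNA that lowers transcripts carrying a match to its seed.

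Library totals were 19165513 to 23542275 counts. Levels are given as CPM, counts relative to each library's total after scaling by the trimmed mean of M values (TMM). Scr replicate 2 stood apart from the other Scr libraries. Its 3 pairs had a chi-square of 5.03 to 5.20 per gene, against 1.72 to 2.31 in the other 9 pairs within groups. Results without it are given for some genes, not for every gene in which it was the highest or lowest Scr library. Adjusted p-values without it come from a separate fit to fewer libraries, and a smaller one does not stand for more replication. All 9 ductal and epithelial markers examined averaged at least 1 CPM over the 8 libraries, with sums, made up mostly of keratins, of 11530 to 11858 CPM in the miR-27a KD libraries and 10830 to 11796 CPM in the Scr libraries. Single markers differed between the lines: Cldn4 had 4.51 ± 0.246 CPM in miR-27a KD against 0.231 ± 0.132 CPM in Scr (edgeR adjusted p = 3.8e-12), Krt7, Muc1 and Cdh1 were also higher in miR-27a KD (log2 fold changes of 0.31, 0.42 and 0.23), and Sox9 was lower (−0.25). Their part in the results below was not tested. The fibroblast markers Col1a2, Pdgfrb, Dcn and Lum and all 4 acinar markers had 0 counts in all 8 libraries, and the sums of the 7 fibroblast markers were 0.725 to 1.38 CPM in miR-27a KD and 0.943 to 1.41 CPM in Scr. Of the leukocyte markers only Cd68 averaged at least 1 CPM, at 2.99 ± 0.503 CPM in miR-27a KD and 3.39 ± 0.303 CPM in Scr (SD, n = 4 each).

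The microRNA and its matches in the 3′ untranslated regions (UTRs) of these genes are shown first. Tgfbr1 and the Smads have been reported as miR-27 targets. The mature sequences are from RefSeq (GRCm38.p6), and capitals mark the seed, bases 2 to 8, which is the same in miR-27a-3p (chr8:84208727-84208747, + strand) and miR-27b-3p (chr13:63300760-63300780, + strand).
miR-27a-3p: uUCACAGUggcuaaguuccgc
miR-27b-3p: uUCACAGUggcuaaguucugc

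The longest GENCODE M21 3′ UTR of each gene (GRCm38) was searched on its own strand for the 6mer core CTGTGA, the 7mer-A1 CTGTGAA, the 7mer-m8 ACTGTGA and the 8mer ACTGTGAA, each match being counted once under its longest form. A match of 7 or 8 bases was found in 7 of the 10 genes, and 1 of these, in Tgfbr3, was an 8mer. The matches of 7 or 8 bases are printed below, except the 7mer-A1 of Smad2, whose sequence is not reported here. They have 10 flanking bases on each side, the match in capitals and the coordinates of the match alone in GRCm38.
Tgfbr1, 7mer-m8, chr4:47412339-47412345, + strand: cctttttatcACTGTGAtcatattctg
Tgfbr1, 7mer-A1, chr4:47414753-47414759, + strand: tttgagaaacCTGTGAAgagagaagca
Tgfbr2, 7mer-m8, chr9:116087570-116087576, - strand: catgagtagtACTGTGAgcgcatttcc
Tgfbr3, 8mer, chr5:107107815-107107822, - strand: aatttcagttACTGTGAAttcttctaat
Smad3, 7mer-m8, chr9:63649234-63649240, - strand: gccacagcaaACTGTGAcactgtgtaa
Pmepa1, 7mer-A1, chr2:173226972-173226978, - strand: tccagacaggCTGTGAAcagttacaca
Pmepa1, 7mer-A1, chr2:173226251-173226257, - strand: gttgtgtcttCTGTGAAtacaagagaa
Skil, 7mer-A1, chr3:31122204-31122210, + strand: agtttctaacCTGTGAAggcagtaagt

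Such matches are frequent in UTRs of these lengths. Among tested genes whose UTR had a similar length (from 0.8 times it up to the inverse of that factor), a match of 7 or 8 bases was present in 62.2% of 1039 for Tgfbr1 (UTR of 4154 bases, 2 such matches), in 54.9% of 1360 for Smad3 (3495 bases, 1 match) and in 74.4% of 391 for Smad2 (6233 bases, 1 7mer-A1 and 3 shorter cores). The shares were 74.0% of 412 for Tgfbr2 (6085 bases), 53.8% of 1434 for Pmepa1 (3364 bases) and 59.7% of 1118 for Skil (3964 bases). For the 8mer of Tgfbr3 (3069 bases) the share of like UTRs with an 8mer was 11.1% of 1546. Tgfb1, with a UTR of 135 bases, and Tgfb3, with 1035, held none of these forms, and Tgfb2 held 1 core of 6 bases.

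**Figure D1:**
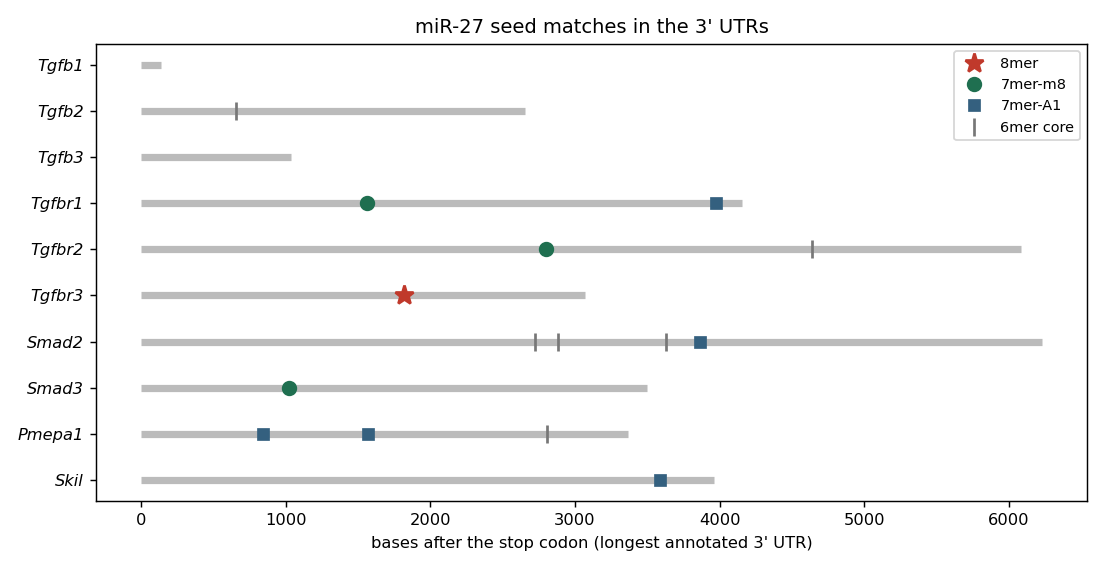
Matches to the miR-27 seed in the longest annotated 3′ UTR of each of the 10 genes, by distance in bases from the stop codon; grey bars are the UTRs and symbols the match types. Pmepa1 and Tgfbr1 carry 2 matches of 7 bases each, Tgfbr3 carries the 1 8mer, and Tgfb1 and Tgfb3 carry no match.

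Of the 10 genes, 9 passed the filter on low counts and were tested, and 7 of these differed between the lines, 3 higher and 4 lower in miR-27a KD (edgeR's quasi-likelihood test, Benjamini-Hochberg adjusted p under 0.05 over all 11797 tested genes). Tgfb3, Pmepa1 and Skil were higher, Tgfb1, Tgfb2, Tgfbr1 and Smad3 were lower, and Tgfbr2 and Smad2 did not pass. Without Scr replicate 2 the counts were also 3 higher and 4 lower. In the background of all tested genes 47.9% passed, 23.8% higher and 24.1% lower, so a difference as such is common in this comparison. In bulk RNA of this kind, fewer cells expressing a gene and less RNA per cell cannot be told apart. The libraries of the groups did not overlap for the 7 called genes, as was the case for 42.2% of all tested genes. The median log2 fold change of the 9 genes was −0.03, against 0.0017 for all tested genes, whose median absolute value was 0.133.

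**Figure D2:**
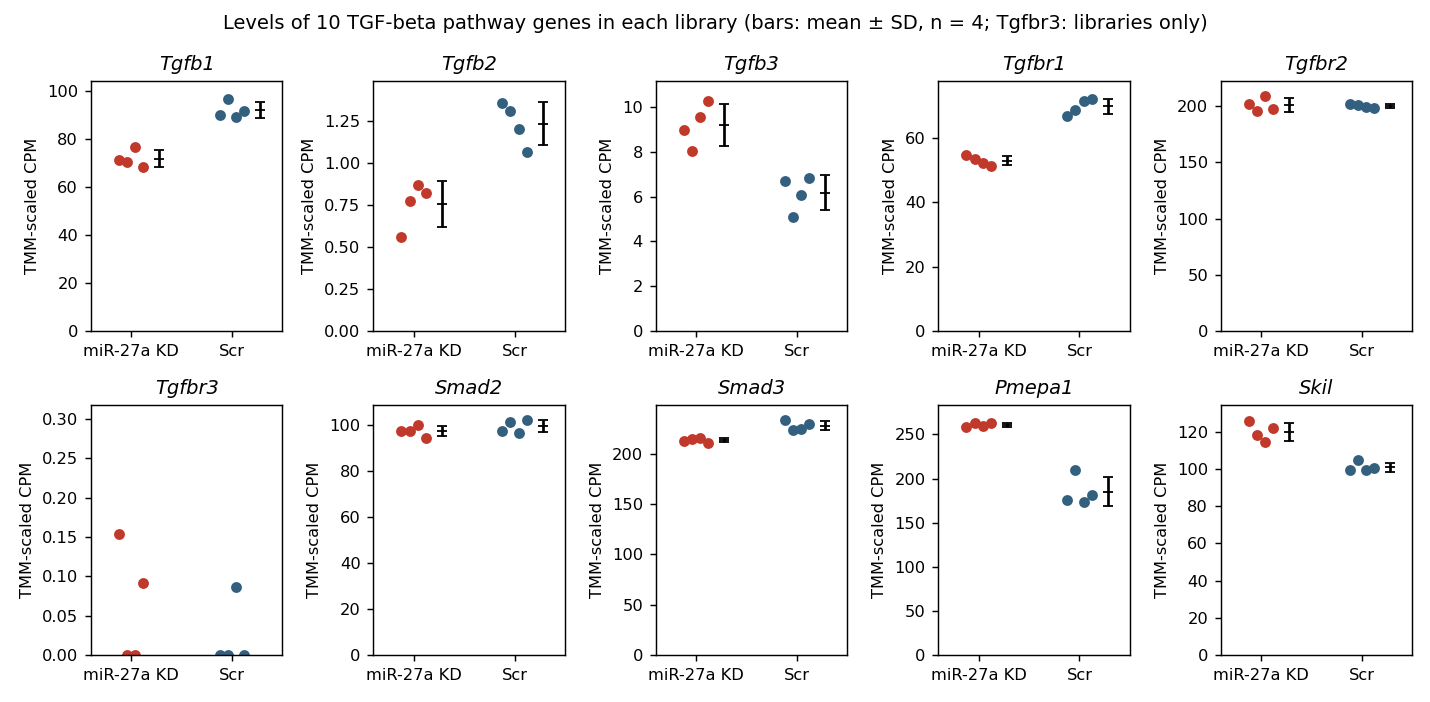
TMM-scaled CPM of the 10 genes in each miR-27a KD library (left, red) and Scr library (right, blue), with mean ± SD beside the points (n = 4; none drawn for Tgfbr3, at 0 to 3 counts). The groups separate for Tgfb1, Tgfb2, Tgfb3, Tgfbr1, Smad3, Pmepa1 and Skil, and overlap for Tgfbr2 and Smad2.

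Among the ligands, Tgfb1 was the main one and was lower in the knockdown line, while the scarcer Tgfb3 was higher. Tgfb1 (chromosome 7, 25687002 to 25705077, + strand), the ligand most widely made in epithelia and tumours, had 71.5, 70.6, 76.9 and 68.4 CPM in miR-27a KD replicates 1 to 4, against 90.3, 96.9, 89.3 and 91.8 CPM in Scr replicates 1 to 4. All 4 knockdown libraries were below all 4 Scr libraries. Tgfb1 fell 1.28-fold (log2 fold change −0.36, SE 0.039, edgeR adjusted p = 8.8e-08), a change smaller in absolute size than that of 15.8% of tested genes.

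Tgfb3 (chromosome 12, 86056745 to 86079041, - strand), a ligand best known for its role in palate fusion, had 8.96, 8.03, 9.55 and 10.3 CPM in miR-27a KD, against 6.70, 5.09, 6.09 and 6.85 CPM in Scr. The groups did not overlap, and Scr replicate 2 was the lowest library. Tgfb3 rose 1.49-fold (log2 fold change 0.58, SE 0.11, edgeR adjusted p = 0.000118), and without Scr replicate 2 the log2 fold change was 0.50 (edgeR adjusted p = 6.55e-05). Of its 3383 exon bases, 163 are shared with Gm37804 and 257 with Gm48008 on the opposite strand, and the strand setting of the counting is not given in the sources used here, so reads of these genes cannot be told apart from its own.

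Tgfb2 (chromosome 1, 186622792 to 186705989, - strand), the ligand that depends most on the co-receptor Tgfbr3 for receptor binding, was near the lower limit of the test. It had 11, 15, 17 and 18 counts in miR-27a KD replicates 1 to 4, against 28, 26, 28 and 22 counts in Scr replicates 1 to 4, or 0.757 ± 0.135 CPM in miR-27a KD and 1.23 ± 0.129 CPM in Scr (SD, n = 4 each). The groups did not overlap, and Tgfb2 fell 1.62-fold (log2 fold change −0.70, SE 0.24, edgeR adjusted p = 0.0226). The call rested on single libraries, with an edgeR adjusted p of 0.0748 without miR-27a KD replicate 1 and 0.0577 without Scr replicate 1, and DESeq2 gave an adjusted p of 0.0835. It shares 124 of 5791 exon bases with the antisense gene Gm29491.

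Per kilobase of exon, the measure on which genes can be set side by side, Tgfb1 made up 83.3 ± 1.61% of the summed level of the 3 ligands in miR-27a KD and 89.9 ± 1.26% in Scr (SD, n = 4 each). Tgfb3 made up 15.9 ± 1.57% in miR-27a KD and 9.01 ± 1.28% in Scr, and Tgfb2 0.764 ± 0.127% in miR-27a KD and 1.05 ± 0.109% in Scr. The sum of the 3 ligands was 17.1 ± 0.764 CPM per kilobase in miR-27a KD and 20.3 ± 0.519 CPM per kilobase in Scr. These shares depend on the length used, and with the longest transcript in place of all exons Tgfb3 made up 8.84 ± 0.954% in miR-27a KD and 4.84 ± 0.713% in Scr.

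Of the receptors, the type I receptor was lower and the type II receptor stood at nearly the same level in both lines. Tgfbr1 (chromosome 4, 47353222 to 47414931, + strand), the kinase that phosphorylates Smad2 and Smad3, had 54.7, 53.4, 52.3 and 51.3 CPM in miR-27a KD, against 66.7, 68.8, 71.5 and 72.0 CPM in Scr. Every knockdown library was below every Scr library by more than the spread within either group. Tgfbr1 fell 1.32-fold (log2 fold change −0.40, SE 0.039, edgeR adjusted p = 1.81e-08), and leaving out any 1 library gave −0.42 to −0.38. Its UTR carries the 7mer-m8 and 7mer-A1 matches printed above, and their part in the difference was not tested.

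Tgfbr2 (chromosome 9, 116084293 to 116175360, - strand), the ligand-binding kinase, had 201.5, 195.5, 209.0 and 197.5 CPM in miR-27a KD, against 201.8, 200.7, 199.1 and 198.6 CPM in Scr. The libraries overlapped, and the log2 fold change was 0.0058 with a 95% interval of −0.049 to 0.060 (edgeR adjusted p = 0.878). Per kilobase, the ratio of Tgfbr1 to Tgfbr2 was 0.330 ± 0.0133 in miR-27a KD and 0.437 ± 0.0185 in Scr (SD, n = 4 each), a ratio within each library that does not depend on its scaling.

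Tgfbr3 (chromosome 5, 107106570 to 107289629, - strand), betaglycan, the co-receptor that presents ligand to Tgfbr2, was at the limit of detection. It had 3, 0, 0 and 2 counts in miR-27a KD replicates 1 to 4 and 0, 0, 2 and 0 counts in Scr replicates 1 to 4. At 0 counts a true level of as much as 3 counts in a library remains possible. For the libraries with 0 counts this is 0.153 to 0.155 CPM in miR-27a KD and 0.146 to 0.151 CPM in Scr. Such limits cover counting error only. It was not tested, and no fold change is given. The gene with the 1 8mer among the 10 therefore gave no comparison at this depth.

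The 2 transducers differed little between the lines. Smad3 (chromosome 9, 63646767 to 63757994, - strand), the SMAD that binds DNA directly and carries most transcriptional responses to TGF-beta, had 213.2, 215.2, 215.4 and 211.2 CPM in miR-27a KD, against 233.6, 223.5, 225.1 and 229.8 CPM in Scr. The groups did not overlap, and Smad3 fell 1.07-fold (log2 fold change −0.093, SE 0.025, 95% interval −0.14 to −0.042, edgeR adjusted p = 0.00367). Among tested genes 62.8% had a larger absolute log2 fold change.

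Smad2 (chromosome 18, 76241580 to 76310963, + strand), whose main splice form does not bind DNA by itself, had 97.5, 97.5, 99.8 and 94.5 CPM in miR-27a KD, against 97.6, 101.2, 96.7 and 102.3 CPM in Scr. The libraries overlapped, with a log2 fold change of −0.031 and a 95% interval of −0.097 to 0.035 (edgeR adjusted p = 0.441). Per kilobase, the ratio of Smad2 to Smad3 was 0.287 ± 0.00422 in miR-27a KD and 0.275 ± 0.00988 in Scr (SD, n = 4 each), with overlapping libraries.

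Both feedback genes were higher in the knockdown line. Pmepa1 (chromosome 2, 173224458 to 173276533, - strand), a membrane protein that TGF-beta induces and that keeps Smad2 and Smad3 from the receptor, had 258.5, 262.7, 259.5 and 262.4 CPM in miR-27a KD, against 175.7, 209.8, 173.6 and 181.6 CPM in Scr. The groups did not overlap, and the coefficient of variation was 0.803% in miR-27a KD and 9.04% in Scr, with Scr replicate 2 the highest of them. Pmepa1 rose 1.41-fold (log2 fold change 0.50, SE 0.040, edgeR adjusted p = 9.86e-10), and without Scr replicate 2 its log2 fold change was 0.56 (edgeR adjusted p = 1.5e-28). The second adjusted p is from the separate fit to fewer libraries, with spread estimated anew, and does not stand for more replication. Among tested genes 9.74% changed more in absolute size.

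Skil (chromosome 3, 31095058 to 31122577, + strand) encodes SnoN, a nuclear protein that represses SMAD target genes and is itself induced by TGF-beta. It had 125.6, 118.2, 114.3 and 122.1 CPM in miR-27a KD, against 99.6, 104.6, 99.2 and 100.5 CPM in Scr. The groups did not overlap, and Skil rose 1.19-fold (log2 fold change 0.25, SE 0.033, edgeR adjusted p = 1.62e-06).

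**Figure D3:**
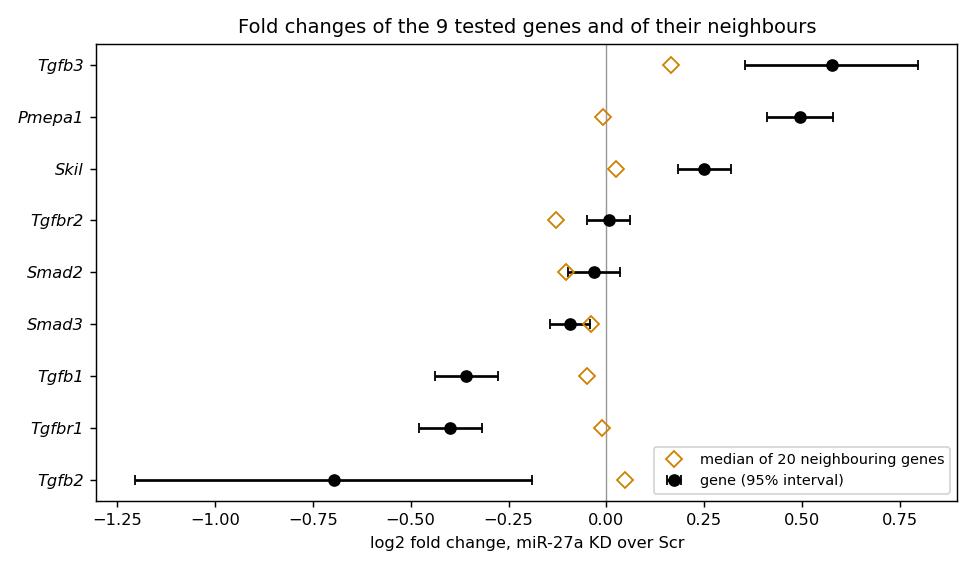
Log2 fold changes (miR-27a KD over Scr) of the 9 tested genes with 95% intervals (black) and the median of the 20 tested genes nearest to each on its chromosome (orange diamonds). Tgfb3, Pmepa1 and Skil lie above 0 and Tgfb1, Tgfb2, Tgfbr1 and Smad3 below it, and the interval of Smad3 ends just below the median of its neighbours.

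Whole chromosomes were shifted slightly between these lines, so each gene was set beside the 10 tested genes on either side of it. The neighbours of Tgfb3 had a median log2 fold change of 0.17, with 11 of 20 higher and 0 lower, the same direction as Tgfb3 itself. Around Tgfbr2 the median was −0.13, and 12 of 20 neighbours fell while 2 rose, and around Smad2 it was −0.10, where 9 fell and 2 rose. The genes themselves had log2 fold changes of 0.0058 (Tgfbr2) and −0.031 (Smad2). Around Smad3 the median was −0.040, where 5 fell and 3 rose, and the median of all of its chromosome was −0.085, inside the interval of Smad3. Medians around Tgfb1, Tgfbr1, Pmepa1 and Skil were −0.049, −0.010, −0.0090 and 0.026, and around Tgfb2 0.047. The part of such regional shifts in the differences of these genes was not tested.

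Ordered by level per kilobase of exon, Pmepa1 was the highest of the 10 in miR-27a KD (53.1 ± 0.426 CPM per kilobase), ahead of Smad3 (38.6 ± 0.359), Tgfbr2 (24.5 ± 0.728), Tgfb1 (14.2 ± 0.71), Skil (12.4 ± 0.501), Smad2 (11.1 ± 0.248) and Tgfbr1 (8.10 ± 0.218; SD, n = 4 for each). In Scr the order began with Smad3 (41.1 ± 0.834 CPM per kilobase) and Pmepa1 (37.7 ± 3.41), whose libraries overlapped, then Tgfbr2 (24.4 ± 0.176) and Tgfb1 (18.3 ± 0.674). Smad2 (11.3 ± 0.307), Tgfbr1 (10.7 ± 0.376) and Skil (10.4 ± 0.252) followed in Scr. The libraries of Tgfbr1 and Skil overlapped, and the lowest library of Smad2 lay barely above the highest of Tgfbr1. Tgfb3 came eighth in both lines, at 2.72 ± 0.279 CPM per kilobase in miR-27a KD and 1.83 ± 0.236 in Scr, and Tgfb2 ninth, at 0.131 ± 0.0233 in miR-27a KD and 0.213 ± 0.0223 in Scr. With the longest transcript as the length, Tgfb1 stood at 31.9 in place of 16.3 CPM per kilobase over all 8 libraries and passed Tgfbr2, at 24.8. Skil then stood above Smad2 and Tgfbr1 in Scr also, at 15.0 against 12.3 and 12.1 CPM per kilobase.

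**Figure D4:**
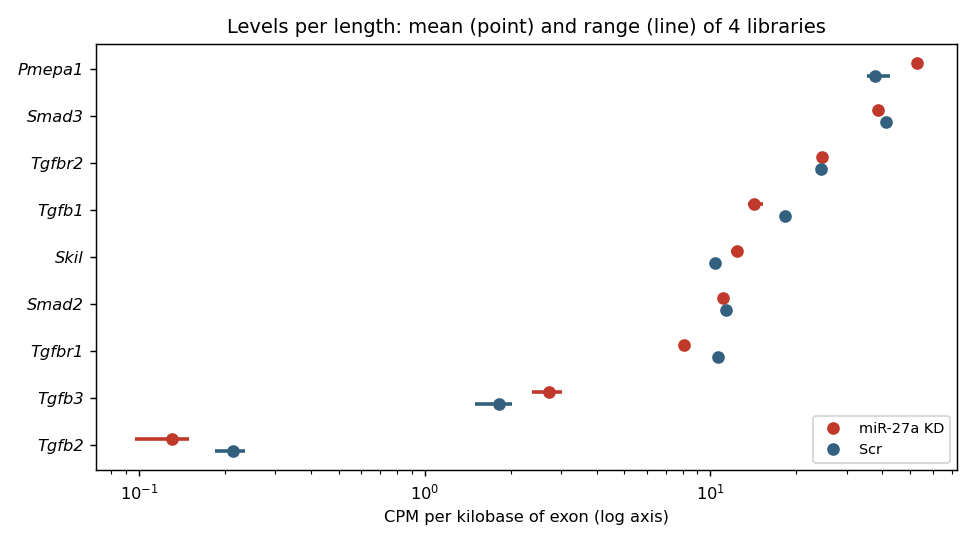
Levels in CPM per kilobase of exon on a log axis for 9 genes, with the mean (point) and range (line) of 4 libraries in miR-27a KD (red, upper) and Scr (blue, lower). Pmepa1 lies above Smad3 in miR-27a KD and overlaps it in Scr, while the ligands Tgfb3 and Tgfb2 lie lowest in both.

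Genes with the most similar profiles were sought for the member with the smallest adjusted p in each direction. The measure was the root-mean-square difference of mean-centred log2 CPM over the 8 libraries. The 9558 genes compared were tested genes that averaged 5 CPM or more, leaving out the members themselves and predicted or clone-named genes. For Pmepa1 the 3 nearest were Rdh10 (0.0349), Wars2 (0.0358) and F3 (0.0492), with log2 fold changes of 0.46, 0.48 and 0.52. For Tgfbr1 they were Slc2a1 (0.0270), Hhex (0.0313) and Lrp8 (0.0318), with log2 fold changes of −0.36, −0.38 and −0.35. Slc2a1 and Lrp8 lie on chromosome 4, as Tgfbr1 does, and Hhex lies on chromosome 19. Rdh10, Wars2 and F3 lie on other chromosomes than Pmepa1. The part of a shared chromosome was not tested. The measure includes the difference between the lines.

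Around the 10 genes, other parts of the pathway were read from lists of other genes. Of 27 genes that hold ligands latent or release them, 17 were tested, and 7 rose, 5 fell and 5 did neither. The share called was 70.6%, against 47.9% of all tested genes, with a median log2 fold change of 0.07. Thbs1, thrombospondin, an activator of latent TGF-beta, rose 1.75-fold (51.6 ± 1.88 CPM in miR-27a KD against 29.5 ± 2.74 CPM in Scr; edgeR adjusted p = 4.98e-11). Furin, the protease that cleaves the ligand precursors, had a log2 fold change of 0.27 (244 ± 6.48 CPM in miR-27a KD against 203 ± 3.96 CPM in Scr), and the integrin chain Itgb1 rose 1.22-fold (841 ± 0.854 CPM in miR-27a KD against 688 ± 11.6 CPM in Scr). Ltbp1, which tethers latent ligand to the matrix, fell 1.13-fold (98.6 ± 3.36 CPM in miR-27a KD against 112 ± 1.13 CPM in Scr, edgeR adjusted p = 6.23e-05), and its relative Ltbp3 stood at 277 ± 8.86 CPM in miR-27a KD against 284 ± 4.07 CPM in Scr (edgeR adjusted p = 0.31). Of the integrin chains best known for freeing TGF-beta in epithelia, Itgb6 had 6.74 ± 0.527 CPM in miR-27a KD against 6.62 ± 1.76 CPM in Scr (edgeR adjusted p = 0.87), with Scr replicate 2 at 9.22 CPM and a log2 fold change of 0.23 without that library in place of 0.031 (edgeR adjusted p = 0.0942). Itgb8 had at most 0.137 CPM in any library.

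Of 39 regulators of the receptors and SMADs, 36 were tested, and 7 rose, 7 fell and 22 did neither. The share called was 38.9%, against 47.9% of all tested genes, with a median log2 fold change of 0.0084. Smad7, the inhibitory SMAD induced by the pathway, had 31.3, 34.9, 32.8 and 34.5 CPM in miR-27a KD, against 27.3, 31.8, 29.4 and 31.8 CPM in Scr. The libraries overlapped, the rise was 1.11-fold (edgeR adjusted p = 0.0301), and the adjusted p was 0.0701 to 0.118 without miR-27a KD replicate 2 or 4 or Scr replicate 1 or 3 in turn. Smad4, the common partner of Smad2 and Smad3, had 128 ± 1.98 CPM in miR-27a KD against 134 ± 2.52 CPM in Scr (edgeR adjusted p = 0.0578). Ski, the relative of Skil, had 133 ± 1.2 CPM in miR-27a KD against 128 ± 3.67 CPM in Scr (edgeR adjusted p = 0.0722, or 0.029 without Scr replicate 1), and Smurf2, a ubiquitin ligase that acts on the receptors, 78.8 ± 2.35 CPM in miR-27a KD against 78.3 ± 4.60 CPM in Scr (edgeR adjusted p = 0.847). Cav1, caveolin, through which receptors are internalised and turned over, fell 1.63-fold (264 ± 2.39 CPM in miR-27a KD against 429 ± 14.5 CPM in Scr), and Fkbp1a, which binds and quiets Tgfbr1, fell 1.16-fold (754 ± 5.35 CPM in miR-27a KD against 871.5 ± 12.2 CPM in Scr).

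Of 40 genes known to be induced by TGF-beta in various cells, 31 were tested, and 14 rose, 10 fell and 7 did neither. The share called was 77.4%, against 47.9% of all tested genes, with a median log2 fold change of 0.07. Fn1, fibronectin, rose 1.21-fold (474 ± 6.48 CPM in miR-27a KD against 392.1 ± 15.6 CPM in Scr) and Col5a1, a fibrillar collagen chain, 2.70-fold (13.3 ± 1.62 CPM in miR-27a KD against 4.94 ± 1.01 CPM in Scr). In the other direction, Ccn2, a matricellular protein listed in the table under its older symbol Ctgf, fell 1.14-fold (255 ± 5.70 CPM in miR-27a KD against 289.9 ± 23.2 CPM in Scr, edgeR adjusted p = 0.000359), and without Scr replicate 2 its log2 fold change was −0.13 in place of −0.18 (edgeR adjusted p = 5.92e-06). Snai2, the epithelial-mesenchymal transition factor Slug, fell 1.45-fold (5.96 ± 1.03 CPM in miR-27a KD against 8.58 ± 0.842 CPM in Scr) and Tnc, tenascin, 3.81-fold (3.38 ± 0.611 CPM in miR-27a KD against 12.9 ± 0.742 CPM in Scr). Tgfbi and Snai1, a relative of Snai2, were at or near 0, with at most 0.102 and 0.243 CPM in any library, and were not tested. Fn1, Ccn2, Col5a1, Tnc, Thbs1 and Furin overlap exons of genes on the opposite strand.

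Of 9 genes known to be repressed by TGF-beta in epithelial cells, 8 were tested, and 2 rose, 3 fell and 3 did neither. The share called was 62.5%, against 47.9% of all tested genes, with a median log2 fold change of −0.07. Myc had 212, 216, 215 and 213 CPM in miR-27a KD, against 186, 219, 183 and 177 CPM in Scr. The rise was 1.12-fold (edgeR adjusted p = 0.00358; DESeq2 adjusted p = 0.059), and Scr replicate 2 was the highest of all 8 libraries; without it the log2 fold change was 0.23 in place of 0.16. Cdh1, E-cadherin, rose 1.17-fold (853 ± 4.04 CPM in miR-27a KD against 729 ± 17.3 CPM in Scr), Id2 fell 1.27-fold (167 ± 5.21 CPM in miR-27a KD against 213 ± 10.2 CPM in Scr), and Id1 had 54.4 ± 5.21 CPM in miR-27a KD against 57.9 ± 2.38 CPM in Scr (edgeR adjusted p = 0.158, or 0.0463 without Scr replicate 2). Of 15 related ligands and antagonists 5 were tested, and 1 rose and 2 fell (60% called, against 47.9% of all tested genes). Among the falls was Fst, follistatin, which binds activins (2.24-fold, 13.8 ± 1.59 CPM in miR-27a KD against 31.0 ± 2.78 CPM in Scr).

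**Figure D5:**
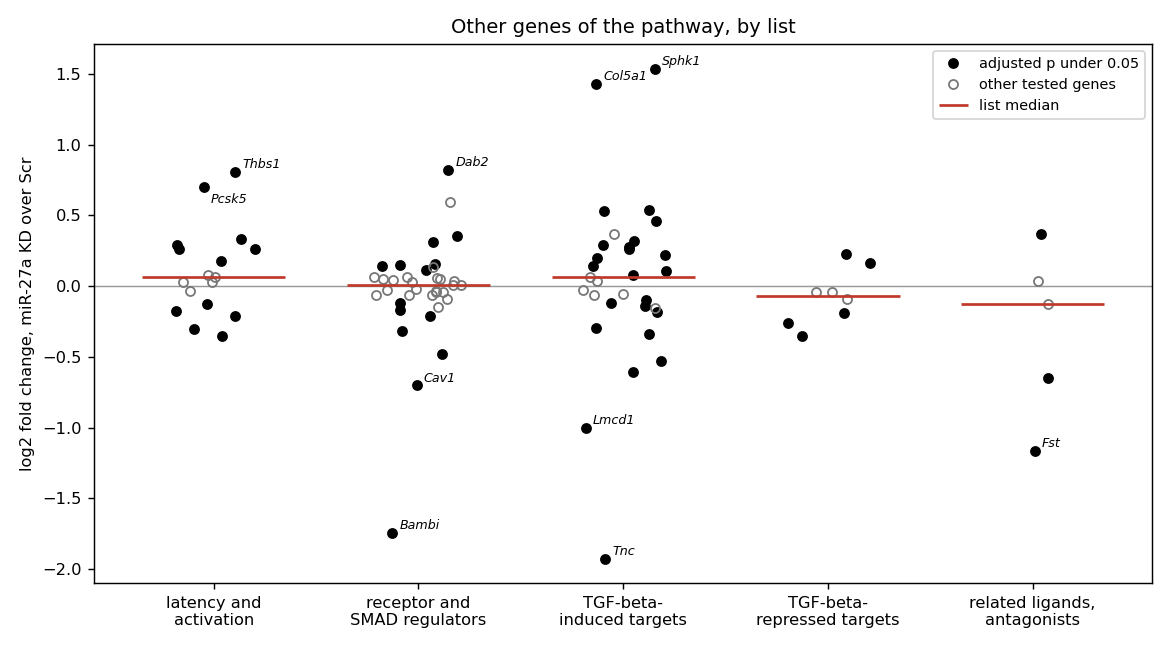
Log2 fold changes (miR-27a KD over Scr) of the tested genes in 5 lists of other TGF-beta pathway genes; filled points have an edgeR adjusted p under 0.05, red lines are list medians, and genes at or beyond 0.7 in either direction are named. Each list holds genes on both sides of 0, with medians from −0.13 to 0.07.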

How the data were processed

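The authors deposited raw read counts, with a gene symbol per row and a library per column. The tools that the submitters' processing notes name are STAR and Bowtie, bcl2fastq (2.20), R (4.2.1) and DESeq2 (1.36.0), with build mm10 and no roles. Per the labels' protocols, a stranded mRNA kit and paired reads of 59 bases were used, and mature miR-27a is not measured. How reads were counted, on which annotation and with which strand setting, is not given in the sources used here.

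The deposited counts were tested in edgeR 4.0.16 under R 4.3.3 (filterByExpr with minimum count 10 and total 15, TMM, glmQLFit and glmQLFTest on group, Benjamini-Hochberg adjustment over all 11797 tested genes, threshold 0.05). The SE is the log2 fold change over the square root of F, and intervals are 95%. Symbols were matched to GENCODE M21 (GRCm38), 23311 by current and 667 by older symbol. The test was checked on simulated counts with few changed genes and the same spread in every gene and library, unlike these data. Alternatives used DESeq2 1.42.0, limma 3.58.1, other scalings, filters and thresholds, a replicate block, and each library left out.

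The genes and lists were chosen with earlier results of these data known. All 10 genes were named whatever their values, as were 17 genes of the lists, of which 1 is not reported here; each list added up to 2 called genes with the smallest adjusted p and a mean of at least 5 CPM. Depth limits precision mainly for Tgfb2 and Tgfbr3.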

Additional observations from a re-analysis of the deposited data

Results flagged for a closer look

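Dixon's test was applied to 72 groups of 4 libraries (the 10 genes and the other named genes in each line). In 6 of them 1 library was separated from the other 3 by more than the 95% critical value allows. Chance alone marks about 1 in 20 groups, a rate that does not hold for groups near 0 counts. Ccn2 had 324.5 CPM in Scr replicate 2, against 275 to 282 CPM in the other Scr libraries. Itgb6 had 7.52 CPM in miR-27a KD replicate 1, against 6.38 to 6.58 CPM in the other knockdown libraries. The remaining 4 were groups at 0 to 3 counts per library. These included Tgfbr3 with 0.0857 CPM in Scr replicate 3 and Tgfbi with 0.0504 CPM in Scr replicate 2. The others were Itgb8 with 0.137 CPM and Snai1 with 0.0456 CPM, both in miR-27a KD replicate 4. In the groups of Tgfbr3, Tgfbi and Itgb8 the other 3 libraries had 0 counts, so any count was bound to be flagged. All 4 knockdown libraries held the same count of Snai1, so its value stands apart through library size alone.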

How the results depend on the processing

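The 3 rises and 4 falls among the 10 genes were also called under DESeq2's size factors, upper-quartile factors, limma-voom, both filters and the replicate block. No fold change of these genes changed sign under these settings or without any 1 library, except that of Tgfbr2, which was not called. The exceptions in calls were as follows. For Tgfb2 (log2 fold change −0.70 under the test against a fold of 1.2 and at 0.01) the call was lost at an adjusted p under 0.01, in that test and in DESeq2 (adjusted p = 0.0835); without 1 library each the fold change ranged from −0.76 to −0.58. Against a fold of 1.2, Smad3 (−0.0929) and Skil (0.25) were not called, leaving 2 rises and 2 falls, and 584 rises and 523 falls over all genes. That test left 2 rises and 1 fall among latency genes, 0 and 2 among regulators, 5 and 4 among induced, 0 and 1 among repressed, and 0 and 1 among related-ligand genes (edgeR; at unadjusted p under 0.05 the rises were 1, 0 and 0 for the lists with 0, where DESeq2 called 5, 1 and 1 and limma-voom 7, 2 and 1 without the fold). An adjusted p under 0.01 left 3 falls of latency genes, 4 rises of regulators and 0 of related ligands (1 at unadjusted p under 0.05). DESeq2 called 1 rise of repressed targets, and no filter gave 2 rises of related ligands, which ranged from 0 (edgeR without miR-27a KD replicate 3, 1 at unadjusted p under 0.05) to 2 (without Scr replicate 2, 3 or 4).

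With the longest transcript, levels per kilobase were 31.9 for Tgfb1, 12.2 for Smad2, 43.4 for Smad3 and 16.5 for Skil. Whole-chromosome medians in place of neighbours were 0.10 for Tgfb3, −0.0501 for Tgfbr1, −0.0854 for Tgfbr2, 0.14 for Tgfbr3, −0.0876 for Smad2, −0.0851 for Smad3 and 0.0259 for Pmepa1. Counting only 8mers, 1 gene had a match. Same-numbered libraries showed no shared deviation (correlations −0.0350 to 0.0201 over 4 pairs), which cannot tell whether those cultures were handled together. The replicate block gave 2762 rises and 2771 falls, against 2804 and 2841. The cause of these shifts was not tested.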

Other observations

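A few further genes tied to TGF-beta feedback and response, chosen after their values were seen, are given as values. Ldlrad4, a membrane protein related to Pmepa1 that also holds back Smad2 and Smad3, stood at 8.42 ± 1.42 CPM in miR-27a KD against 6.59 ± 0.532 CPM in Scr (SD, n = 4 each; edgeR adjusted p = 0.0137). Bambi, a pseudoreceptor that blocks type I receptors, stood at 0.184 ± 0.0949 CPM in miR-27a KD against 0.637 ± 0.0976 CPM in Scr (edgeR adjusted p = 0.00136), a level near the detection limit. Junb, an AP-1 subunit that TGF-beta induces, stood at 157 ± 9.27 CPM in miR-27a KD against 108 ± 10.8 CPM in Scr (edgeR adjusted p = 8.89e-09), and Rhob, a small GTPase, at 74.0 ± 6.54 CPM in miR-27a KD against 53.8 ± 1.14 CPM in Scr (edgeR adjusted p = 7.37e-08). Cdkn1a, the cell-cycle inhibitor p21, stood at 5.25 ± 0.561 CPM in miR-27a KD against 7.96 ± 0.507 CPM in Scr (edgeR adjusted p = 5.22e-05), the opposite direction to Junb and Rhob. Sphk1, a sphingosine kinase, rose 2.91-fold from a low level (3.53 ± 0.266 CPM in miR-27a KD against 1.21 ± 0.182 CPM in Scr, edgeR adjusted p = 1.59e-07). Ldlrad4 shares 2798 exon bases with Fam210a on the opposite strand. Also with genes on the opposite strand, Junb shares 173 with the protein-coding gene Prdx2, Cdkn1a 273 with AC167363.2 and Sphk1 192 with Gm29292.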
